A study of Homo sapiens with 8 samples.

Results

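The genes described here are 42 genes of DNA replication and S phase, a named set matched by symbol to the Ensembl identifiers of the count files (42 of 42 matched, of 58302 gene entries in all). They cover the loading and activation of the replicative helicase, the polymerases with their sliding clamp, the joining of lagging-strand fragments, nucleotide supply, chromatin assembly and the control of S phase entry. The libraries are from RD, an established human cell line of rhabdomyosarcoma, which is a cancer with features of skeletal muscle. In 4 of them (control) the cells held a scrambled shRNA, and in the other 4 (shPROX1) an shRNA that silences PROX1, a homeobox transcription factor. Both groups were of the same line in the same serum-containing high-glucose medium. The series design calls the 4 libraries of a group biological replicates, while the labels name no separate cultures, so p-values measure the spread between these libraries. A single control and a single PROX1 hairpin are named, so that effects of the hairpin itself and of PROX1 loss cannot be told apart.

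Before S phase, the origin recognition complex, CDC6 and CDT1 load rings of MCM2 to MCM7 onto origins. Cyclin E and CDK2, with the kinase CDC7, then turn these rings into active helicases by adding CDC45 and the GINS complex, after which polymerases, clamp and clamp loader copy the strands. Many of these genes are transcribed in a wave at the G1 to S transition under E2F factors, so their level in a bulk culture reflects the share of cycling cells as well as the transcript level in each cell, and the 2 cannot be told apart here.

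Libraries held 3747090 to 4865161 counts. Levels are given as CPM (counts scaled to a common library size with TMM factors). Log2 changes are shPROX1 minus control, ± an approximate standard error from the F value of an edgeR quasi-likelihood fit over 12392 tested genes. A gene is said to have risen or fallen where that test passed a Benjamini-Hochberg adjusted p of 0.05 over all tested genes. PROX1 itself fell from 18.6 ± 2.50 to 8.91 ± 1.16 CPM (SD, n = 4 libraries per group; log2 change -1.07 ± 0.15, edgeR adjusted p = 4.89e-06), with counts of 85, 66, 69 and 105 in control and 33, 42, 34 and 35 in shPROX1. The remaining 47.6% is a smaller loss than the series design states, which does not say whether RNA or protein was measured. Of the muscle lineage markers checked, MYOD1, MYOG, DES, CHRNA1, PAX7 and MYH3 were detected in every library, MYF5 had a count of 0 in all 8 and MYF6 stayed below 1 CPM. Leukocyte, endothelial, epithelial and hepatocyte markers were each at or below 2.15 CPM in every library. Several markers moved with the group: MYOG was at 115 to 126 CPM in control and 45.6 to 51.6 CPM in shPROX1, MYH3 at 140.0 to 169 and 79.1 to 84.4 CPM, PAX7 at 41.2 to 42.6 and 28.6 to 33.8 CPM, DES at 524 to 569 and 453 to 499 CPM, and the myelin gene MBP at 10.2 to 13.3 and 4.26 to 7.45 CPM. MYOD1 (log2 change 0.04 ± 0.07) and CHRNA1 (0.01 ± 0.04) did not pass the test. The part of the marker changes in the results on replication genes was not tested.

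The replication genes were expressed throughout and changed little. Control means ran from 29.6 CPM for CHAF1B to 836 CPM for MCM7, and a member had between 100 and 3873 counts in a library. Every member passed the filter on low counts. Of 42 members, 11 rose, 4 fell and 27 did not pass the test. That is 35.7% called, against 35.2% of all tested genes. The share that rose was 26.2% (17.3% of all tested genes) and the share that fell 9.52% (17.9% of all tested genes). For 12 members (28.6%) the groups were fully separated, against 32.4% of all tested genes. The share of members called was thus close to that of genes at large. It was below that of the 6661 tested genes within the members' range of control levels, of which 43.1% were called and 39.1% had separated groups, a difference that was not tested. Of those 6661 genes, 21.9% rose and 21.3% fell.

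The changes were small. Log2 changes ran from -0.22 to 0.33, which is 0.86-fold for GINS1 to 1.26-fold for TK1. None of the 42 reached 1.5-fold, against 10.6% of all tested genes and 5.75% of those within the members' range of levels. For each of the 42 members the 95% interval of the change, taken singly, also lay inside 1.5-fold. The median log2 change was 0.05 in the members and -0.01 over all tested genes. The median size of the change, whatever its sign, was 0.11 and 0.18, with 0.15 in the genes within the members' range of levels. Those genes had a lower median control level (72.2 CPM) than the members (121 CPM). Between control libraries the members varied by a median of 5.05% (coefficient of variation), where counting alone would give 4.37%.

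**Figure D1:**
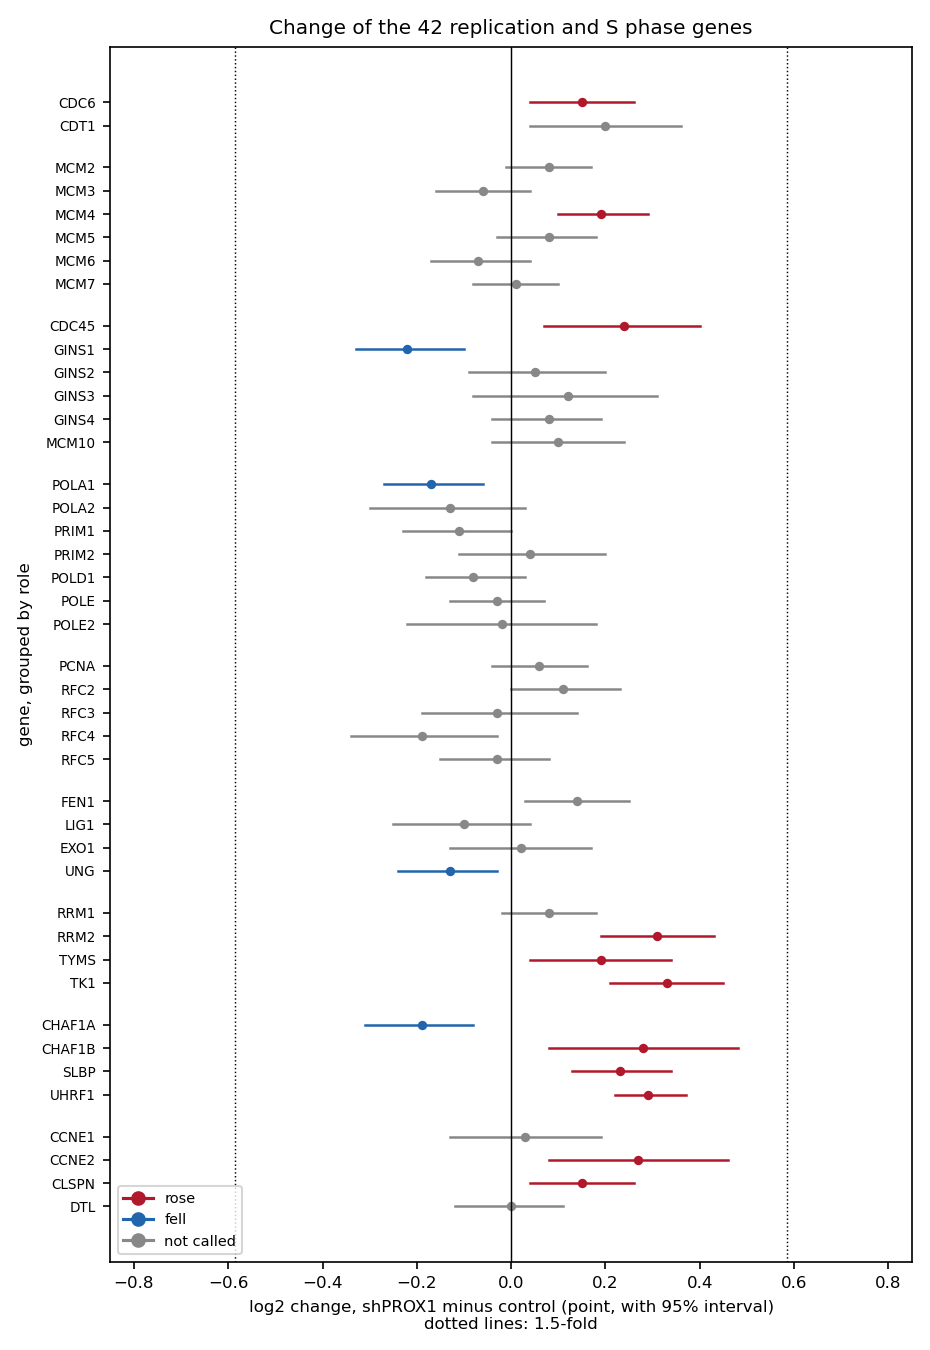
Log2 change (shPROX1 minus control) of each of the 42 members with its 95% interval, grouped by role from the licensing loaders at the top to cyclin E and the checkpoint genes at the bottom; red members rose, blue fell and grey did not pass the edgeR test. All intervals lie between the dotted lines at 1.5-fold, with TK1 highest at 0.33 and GINS1 lowest at -0.22.

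**Figure D2:**
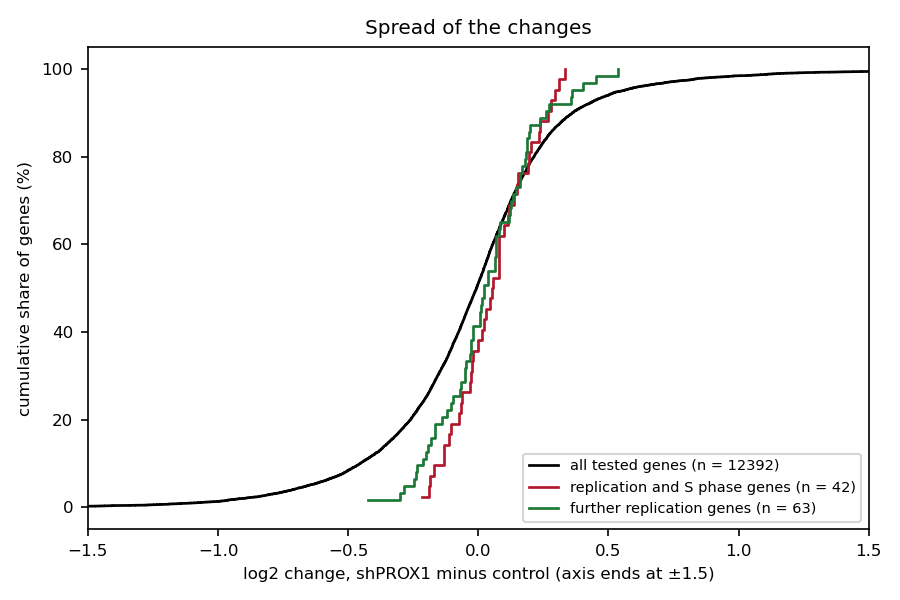
Cumulative share of genes by log2 change for the 12392 tested genes, the 42 members and 63 further replication genes. The 2 replication curves are steeper than that of all tested genes, and the members end at 0.33 on the right and -0.22 on the left.

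Added together, the 42 transcripts made up 7140, 7051, 7128 and 6806 CPM in the control libraries and 7309, 7454, 7296 and 7503 CPM in the shPROX1 libraries. Each shPROX1 library lay above each control library. The mean sum was 7031 ± 156 CPM in control and 7391 ± 103 CPM in shPROX1, a difference of 5.11%. With library size as the only scaling the difference was 3.43%, and with RLE factors 5.46%. Without UHRF1, the member that added most to the difference, the sums were 6334 ± 157 and 6536 ± 86.1 CPM, a difference of 3.19%. The 6 subunits MCM2 to MCM7 supplied 33.4% of the control sum and UHRF1 alone 9.92%.

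By role, all 4 genes of chromatin assembly and its companions were called (3 higher, 1 lower), and 3 of 4 genes of nucleotide supply (3 higher). At the adjusted threshold of 0.01, CHAF1B and TYMS dropped out of these. Of the MCM ring, 1 of 6 subunits passed, with 1 of 7 polymerase and primase genes and 0 of 5 clamp and clamp loader genes. The groups are small, the share over all tested genes was 35.2%, and the roles were not tested against each other. The count of members called higher was 7 without control replicate 4 and 7 without shPROX1 replicate 2, and the count called lower was 2 without shPROX1 replicate 4. With library size as the only scaling, 8 members were called higher and 5 lower.

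**Figure D3:**
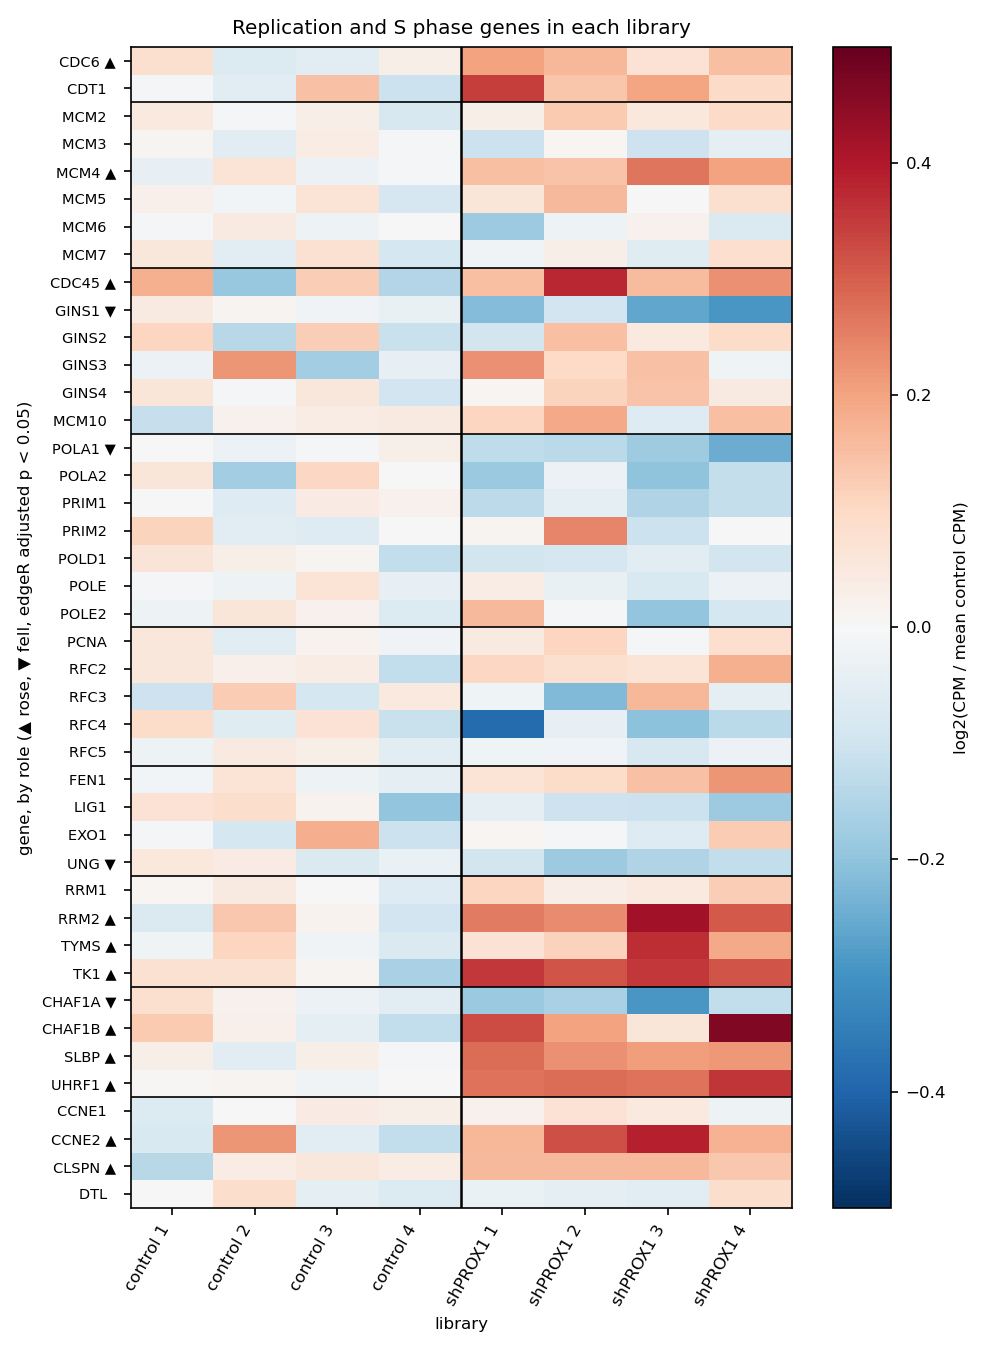
Log2 of CPM over the control mean for each member (rows, grouped by role) in each of the 8 libraries (columns, control left of the line); triangles mark members that rose or fell by the edgeR test. The rows of TK1, RRM2, SLBP and UHRF1 are red in all 4 shPROX1 libraries and those of GINS1 and CHAF1A blue, while most other rows are pale on both sides.

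Nucleotide supply held the largest rise. TK1, the thymidine kinase that salvages thymidine for DNA synthesis (chromosome 17, 78174075 to 78187233, minus strand, GRCh38), had 117, 117, 112 and 99.3 CPM in control and 142, 138, 142 and 138 CPM in shPROX1. All 4 shPROX1 libraries lay above the control libraries. TK1 rose 1.26-fold (log2 change 0.33 ± 0.06, edgeR adjusted p = 8.76e-05). RRM2, the small and cell-cycle-limited subunit of ribonucleotide reductase (chromosome 2, 10120698 to 10131419, plus strand), had 189.6, 219, 202 and 187 CPM in control and 239, 235, 267 and 247 CPM in shPROX1, again without overlap. RRM2 rose 1.24-fold (0.31 ± 0.06, edgeR adjusted p = 1.78e-04). RRM2 shared 20.2% of its exon bases with AC007240.1 on the same strand. Its partner RRM1, the large catalytic subunit, stood at 318 ± 10.1 and 336 ± 10.4 CPM and did not pass (0.08 ± 0.05, edgeR adjusted p = 0.194).

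TYMS, thymidylate synthase, the source of new thymidylate, had 65.5, 71.6, 65.6 and 63.1 CPM in control and 69.8, 72.0, 85.7 and 75.8 CPM in shPROX1. The groups overlapped, with shPROX1 replicate 3 highest. TYMS rose by the test (0.19 ± 0.07, edgeR adjusted p = 0.0413), but lost the call in 8 of 17 alternative settings. Among these were omissions of control replicates 1, 3 or 4 or of shPROX1 replicates 3 or 4 (edgeR adjusted p between 0.0639 and 0.157). TYMS also shared 46.6% of its exon bases with genes on the opposite strand, ENOSF1 and TYMSOS, and whether the counting used strand is not stated in the labels.

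Genes of chromatin assembly, histone mRNA and methylation maintenance were also called, in both directions. UHRF1, which reads hemimethylated DNA and recruits the maintenance methyltransferase (chromosome 19, 4903080 to 4962154, plus strand), had 699.6, 704, 688 and 698 CPM in control and 842, 845, 840.2 and 892 CPM in shPROX1. Its control values were the tightest of any member, and the groups were well separated. UHRF1 rose 1.23-fold (0.29 ± 0.04, edgeR adjusted p = 1.92e-06). SLBP, which binds the stem-loop of histone mRNAs (chromosome 4, 1692800 to 1712555, minus strand), had 123, 116, 123 and 119.6 CPM in control and 146, 141, 139 and 139.8 CPM in shPROX1. SLBP rose 1.18-fold without overlap (0.23 ± 0.05, edgeR adjusted p = 9.99e-04).

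The 2 members of chromatin assembly factor 1, which places histones on new DNA, moved in opposite directions. CHAF1A, its large subunit (chromosome 19, 4402662 to 4445018, plus strand), had 150.3, 144, 139 and 137 CPM in control and 125, 127, 116 and 130.3 CPM in shPROX1. CHAF1A fell without overlap (-0.19 ± 0.06, edgeR adjusted p = 0.00900). CHAF1B, the middle subunit, had 32.4, 30.1, 28.7 and 27.2 CPM in control and 37.1, 34.0, 30.9 and 40.8 CPM in shPROX1. The ranges overlapped between 30.9 and 32.4 CPM. CHAF1B rose (0.28 ± 0.10, edgeR adjusted p = 0.0292), and lost the call in 6 of 17 settings, including omission of control replicates 3 or 4 or shPROX1 replicates 1 or 4 (edgeR adjusted p between 0.0647 and 0.137).

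Sequences upstream of these genes are shown for the 2 largest rises and 2 largest falls among called members of at least 20 CPM that have a usable RefSeq window (RefSeq annotation of GRCh38.p14, 250 bases before to 50 after the start), so that the letters typical of E2F-responsive promoters can be seen in genes that went opposite ways. Capitals mark E2F-type letters, which are TTCCCGC (in 20 of the 38 members with a window), and likewise TTGGCGC (in 11), with the variants TTGCCGC and also the form TTCGCGC. They further mark CCAAT, the box bound by NF-Y. Both strands were read, and adjacent or overlapping matches run together. Where several starts are listed, as for TK1 and RRM2 (2 each), the window with more E2F-type matches is given. The windows are chr17:78187003-78187302 (minus strand) for TK1, chr2:10122318-10122617 (plus) for RRM2, chr20:25407423-25407722 (plus) for GINS1 and chr19:4402390-4402689 (plus) for CHAF1A.
TK1: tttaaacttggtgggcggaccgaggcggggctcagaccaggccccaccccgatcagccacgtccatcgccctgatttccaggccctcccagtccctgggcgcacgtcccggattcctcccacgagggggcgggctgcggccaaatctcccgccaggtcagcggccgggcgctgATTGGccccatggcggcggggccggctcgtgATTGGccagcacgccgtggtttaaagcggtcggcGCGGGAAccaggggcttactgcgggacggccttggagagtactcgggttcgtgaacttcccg
RRM2: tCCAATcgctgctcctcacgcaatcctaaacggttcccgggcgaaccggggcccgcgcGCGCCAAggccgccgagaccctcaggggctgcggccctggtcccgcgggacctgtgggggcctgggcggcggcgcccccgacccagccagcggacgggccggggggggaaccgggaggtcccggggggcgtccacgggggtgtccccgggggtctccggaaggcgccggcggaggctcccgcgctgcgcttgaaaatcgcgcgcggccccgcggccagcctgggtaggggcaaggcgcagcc
GINS1: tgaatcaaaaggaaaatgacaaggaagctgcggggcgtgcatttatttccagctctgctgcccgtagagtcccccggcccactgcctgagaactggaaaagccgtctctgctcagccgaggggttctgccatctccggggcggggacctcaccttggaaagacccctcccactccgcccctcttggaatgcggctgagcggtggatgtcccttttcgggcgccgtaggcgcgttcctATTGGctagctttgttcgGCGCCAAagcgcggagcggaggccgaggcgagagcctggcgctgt
CHAF1A: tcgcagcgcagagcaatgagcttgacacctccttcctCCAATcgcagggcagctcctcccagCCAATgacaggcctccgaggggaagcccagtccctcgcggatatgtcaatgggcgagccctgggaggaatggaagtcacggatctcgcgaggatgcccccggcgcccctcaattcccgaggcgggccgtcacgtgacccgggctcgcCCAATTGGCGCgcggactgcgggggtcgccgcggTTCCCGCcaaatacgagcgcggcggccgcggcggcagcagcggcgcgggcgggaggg

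The E2F-type letters began 12 bases before the start in the TK1 window and 192 before it in that of RRM2, at position 6 after the start in GINS1, and 37 and 7 bases before it in CHAF1A. CCAAT was read 2 times in the TK1 window, 1 time each in those of RRM2 and GINS1, and 4 times in that of CHAF1A, where 1 pair overlapped the E2F-type match. In the windows shown, both genes that rose and both that fell carried each kind of letters. The TK1 and RRM2 windows were chosen for their E2F-type matches, so these letters there say nothing on the direction of change. The other listed RRM2 window held CCAAT 3 times. Windows were listed for 38 of 42 members, and 31 of these (81.6%) held E2F-type letters in at least 1 window. The share was 15.3% of all 27305 genes with a window and 26.0% of the tested genes with one. By call, the letters were in 7 of 9 members that rose, 4 of 4 that fell and 20 of 25 that did not pass. CCAAT was in 55.3% of the members and 44.1% of the tested genes. TTTGAA, the letters of the cell cycle homology region of later-phase genes, was in 5.26% of the members and 13.7% of the tested genes, and TTCGAA in 2.63% and 2.45%. A match of letters is a description and not a site.

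The loaders CDC6 and CDT1, which bring the MCM ring to origins, gave values near the threshold. CDC6 had 164, 148, 149 and 158 CPM in control and 178, 174, 163 and 172 CPM in shPROX1, overlapping by the lowest shPROX1 and the highest control library. CDC6 rose (0.15 ± 0.05, edgeR adjusted p = 0.0314), and lost the call in 8 of 17 settings, with omission of control replicates 2 or 3 or shPROX1 replicates 1, 2 or 4 among them (edgeR adjusted p between 0.0619 and 0.0976). CDT1 had 45.1, 43.7, 50.1 and 42 CPM in control and 57.5, 49.9, 51.9 and 48.4 CPM in shPROX1 and lay just outside the threshold (0.20 ± 0.08, edgeR adjusted p = 0.05021). It passed in 4 of 17 settings, 2 of them without control replicate 3 (edgeR adjusted p = 0.0247) and without shPROX1 replicate 4 (edgeR adjusted p = 0.0432).

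Of the 6 MCM subunits that form the helicase ring, MCM4 alone was called. MCM4 (chromosome 8, 47960185 to 47978160, plus strand) had 344, 371, 347 and 353 CPM in control and 393, 391, 426 and 407 CPM in shPROX1, without overlap. MCM4 rose 1.14-fold (0.19 ± 0.05, edgeR adjusted p = 0.00234) and kept the call in all 17 settings. MCM2 had 451, 433, 445 and 413 CPM in control and 445, 477, 452 and 466 CPM in shPROX1 (0.08 ± 0.05, 95% interval -0.01 to 0.17). MCM7, the most abundant member, had 869, 806, 882 and 786 CPM in control and 826, 854, 802 and 887 CPM in shPROX1. Its log2 change of 0.01 ± 0.04 had an interval of -0.08 to 0.10, the sign of which turned with library size as the only scaling (-0.011). The values of MCM3 (-0.06 ± 0.05), MCM5 (0.08 ± 0.05) and MCM6 (-0.07 ± 0.05) did not pass either.

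Levels of subunits can be compared per kilobase of annotated exon. In control, MCM7 stood at 191 ± 10.7 CPM per kb, MCM2 at 88.9 ± 3.49, MCM3 at 83.8 ± 2.26, MCM4 at 50.7 ± 1.72, MCM6 at 45.3 ± 0.907 and MCM5 at 31.7 ± 1.40. Of these neighbours, the control values of MCM2 and MCM3 overlapped and the others did not. The ring holds 1 copy of each subunit, while the mRNA levels spanned the range from MCM5 to MCM7. Divided by the longest annotated transcript in place of all exons, MCM5 (50.6 CPM per kb) and MCM6 (49.9) changed places at the bottom of the order.

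**Figure D4:**
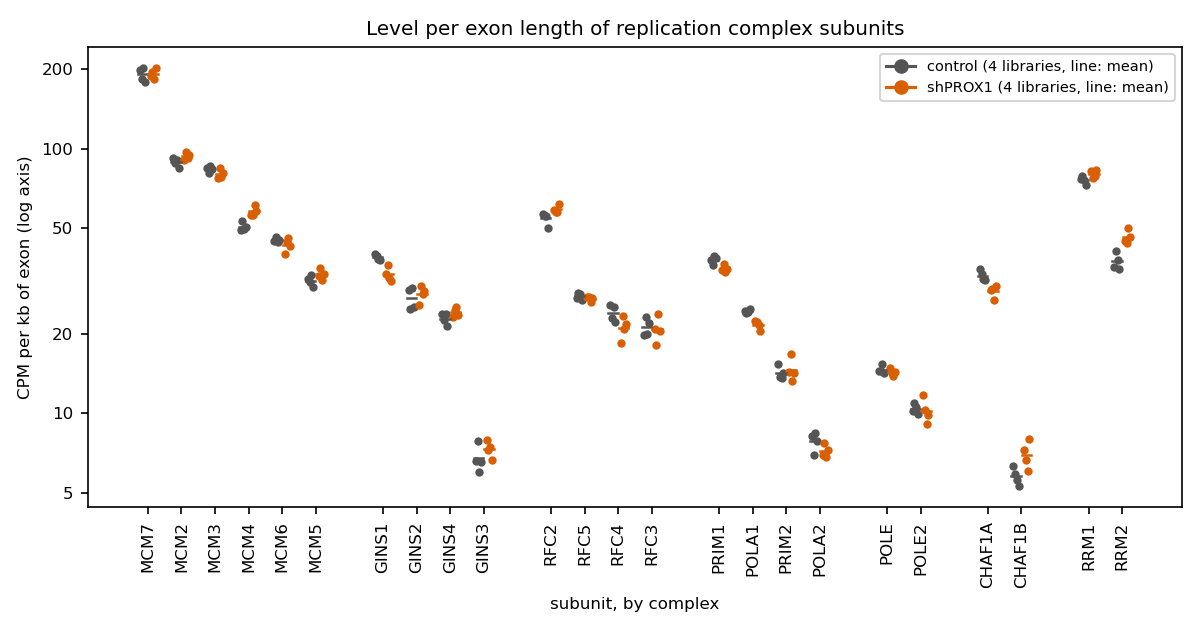
CPM per kilobase of exon (log axis) of the subunits of 7 complexes in each library, control in grey and shPROX1 in orange, with a line at each group's mean. MCM7 is highest near 191, GINS3, POLA2 and CHAF1B are lowest in their complexes, and the control and shPROX1 points of most subunits lie side by side. POLA2 shared 35.1% of its exon bases with AP000944.2 on the same strand, so reads there may have been dropped. Other subunits also shared exon bases, among them MCM2 and GINS4 (23.6% each, opposite strand), PRIM1 (21.6%, both strands) and RRM2 (20.2%, same strand).

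Ratios of counts between subunits of 1 complex need no scaling between libraries and were compared for 36 pairs in 7 complexes, a comparison added after the changes of single genes were seen. In 9 pairs the groups did not overlap (exact two-sided permutation p = 0.0286 each, the smallest that 70 arrangements allow). After Benjamini-Hochberg adjustment over the 36 pairs 0 passed, and the smallest adjusted value of these exact tests was p = 0.114. The smallest exact p is the same for any size of shift. The adjusted value thus followed only the number of separated pairs, and it cannot decide whether a given ratio shifted. How often ratios of other gene pairs separate was not measured, and the pairs share subunits. The log2 ratio of CHAF1A to CHAF1B went from 2.27 ± 0.05 in control to 1.81 ± 0.11 in shPROX1, that of RRM1 to RRM2 from 0.67 ± 0.07 to 0.44 ± 0.10, and that of GINS1 to GINS4 from 0.34 ± 0.06 to 0.04 ± 0.10 (SD, n = 4). The ratio of MCM4 to MCM6 went from 0.92 ± 0.02 to 1.18 ± 0.07. By contrast, that of POLE to POLE2 was 2.98 ± 0.06 and 2.98 ± 0.11, and that of MCM2 to MCM5 0.90 ± 0.02 and 0.91 ± 0.04.

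Of the 6 factors that activate the ring, 1 rose and 1 fell (33.3% called, against 35.2% of all tested genes). GINS1, a subunit of the GINS complex that joins CDC45 on the MCM ring (chromosome 20, 25407727 to 25452628, plus strand), had 163, 159.7, 156 and 154 CPM in control and 136, 148, 132 and 129 CPM in shPROX1. The groups did not overlap, and GINS1 fell 0.86-fold (-0.22 ± 0.05, edgeR adjusted p = 0.00330), the largest fall of a member. Its partners gave 0.05 ± 0.07 for GINS2, 0.12 ± 0.09 for GINS3 and 0.08 ± 0.06 for GINS4, none of which passed. CDC45, the helicase cofactor, had 81.8, 63.5, 78.8 and 65.4 CPM in control and 80.4, 94.1, 80.9 and 84.8 CPM in shPROX1. Control replicate 1 lay within the shPROX1 range and the other control libraries below it. CDC45 rose (0.24 ± 0.08, edgeR adjusted p = 0.0238), and lost the call without control replicate 2 or 4 or shPROX1 replicate 2 (edgeR adjusted p between 0.0847 and 0.104). MCM10, which helps to start the helicase, did not pass (0.10 ± 0.07).

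Of the 7 polymerase and primase genes, 1 fell. POLA1, the catalytic subunit of the polymerase that extends RNA primers, had 154, 151, 153 and 157 CPM in control and 141, 140.3, 136 and 129.8 CPM in shPROX1, without overlap. POLA1 fell 0.89-fold (-0.17 ± 0.05, edgeR adjusted p = 0.0121), and narrowly lost the call without shPROX1 replicate 4 (edgeR adjusted p = 0.0510). Its partners POLA2 (-0.13 ± 0.08), PRIM1 (-0.11 ± 0.06) and PRIM2 (0.04 ± 0.07), the accessory and the 2 primase subunits, did not pass. POLD1, the lagging-strand polymerase, was at 198 ± 10.8 and 188 ± 2.26 CPM (-0.08 ± 0.05). POLE, the leading-strand polymerase, was at 242 ± 8.26 and 238 ± 7.61 CPM, with an interval of -0.13 to 0.07 in log2, and POLE2 had an interval of -0.22 to 0.18.

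The sliding clamp and its loader gave no call. PCNA, the ring that tethers polymerases, had 283, 262, 275 and 269 CPM in control and 280.4, 293, 270 and 288 CPM in shPROX1 (0.06 ± 0.05, 95% interval -0.04 to 0.16). RFC2, a loader subunit, lay higher in each shPROX1 library (127 to 137 CPM) than in any control library (111 to 126 CPM), but did not pass (0.11 ± 0.06, edgeR adjusted p = 0.122). RFC4 had 76.6, 68.9, 75.5 and 66.6 CPM in control and 55.1, 69.8, 62.3 and 65.4 CPM in shPROX1 and did not pass either (-0.19 ± 0.07, edgeR adjusted p = 0.05871). It passed without control replicate 4 (edgeR adjusted p = 0.0364) and without shPROX1 replicate 2 (edgeR adjusted p = 0.0280). The values of RFC3 and RFC5 were -0.03 ± 0.08 and -0.03 ± 0.06.

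Of the enzymes that finish strands or repair them, FEN1, the flap endonuclease of Okazaki fragments, had 119.8, 127, 119 and 117 CPM in control and 127, 129, 134 and 141 CPM in shPROX1. The lowest shPROX1 library was just above the highest control library, and FEN1 lay just outside the threshold (0.14 ± 0.05, edgeR adjusted p = 0.05001). It passed in 4 of 17 settings, including omission of control replicate 2 (edgeR adjusted p = 0.0323) or of shPROX1 replicate 1 (edgeR adjusted p = 0.0462). UNG, the uracil DNA glycosylase, had 189, 187, 173 and 178 CPM in control and 171, 160.5, 164 and 167 CPM in shPROX1. UNG fell (-0.13 ± 0.05, edgeR adjusted p = 0.0429) and was the least stable call, lost in 13 of 17 settings. Omission of any 1 library other than control replicate 3 ended it (edgeR adjusted p between 0.0536 and 0.121). The ligase LIG1 (-0.10 ± 0.07) and the exonuclease EXO1 (0.02 ± 0.07) did not pass.

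In the control of S phase entry and fork stability, CCNE2 and CLSPN rose and their neighbours did not pass. CCNE2, an E-type cyclin that drives S phase entry, had 30.0, 36.8, 30.4 and 29 CPM in control and 35.5, 39.5, 41.4 and 35.6 CPM in shPROX1, overlapping through control replicate 2. CCNE2 rose (0.27 ± 0.09, edgeR adjusted p = 0.0284), and lost the call in 7 of 17 settings, among them without control replicates 1, 3 or 4 or shPROX1 replicates 2 or 3 (edgeR adjusted p between 0.0568 and 0.0847). CCNE2 shared 37.1% of its exon bases with INTS8 and AC087752.4 on the opposite strand. CCNE1, the other E-type cyclin, stood at 38.2 ± 1.3 and 39.0 ± 1.15 CPM (0.03 ± 0.08).

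CLSPN (claspin), which links stalled forks to the checkpoint kinase CHEK1, had 139, 157, 159 and 157 CPM in control and 171, 171, 171 and 168 CPM in shPROX1. The groups did not overlap, and CLSPN rose (0.15 ± 0.05, edgeR adjusted p = 0.0280). Its call was lost without control replicate 1, the low library (edgeR adjusted p = 0.0952), and without shPROX1 replicate 1 or 2 (edgeR adjusted p = 0.0610 and 0.0614). DTL, the substrate receptor through which CDT1 is degraded in S phase, was at 127 ± 6.30 and 126 ± 6.06 CPM, with a log2 interval of -0.12 to 0.11.

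Of the 15 called members, 7 kept the call in all 17 alternative settings: TK1, RRM2, UHRF1, SLBP and MCM4 among the rises and GINS1 and CHAF1A among the falls. An adjusted threshold of 0.01 is among these 17 settings, and the other called members did not pass it.

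Beyond the members, 65 further genes of replication, listed by function, were read from the same fit, and 63 of them passed the filter on low counts. Of these 63, 15 rose, 7 fell and 41 did not pass (34.9% called, near the 35.2% of all tested genes), with a median log2 change of 0.02 and none at 1.5-fold or more. With library size as the only scaling 13 were called higher and 12 lower. POLD4, a polymerase delta subunit, and ATRIP, the partner of the kinase ATR, were below the filter.

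Among origin recognition and licensing genes, 3 of 8 rose and 0 fell, so that 37.5% were called, near the 35.2% of all tested genes. The complex subunits ORC6 (0.26 ± 0.07) and ORC1 (0.24 ± 0.05, 119 ± 3.23 to 140.0 ± 2.46 CPM) rose, with the MCM-binding protein MCMBP (0.12 ± 0.05), the last of which lost the call in 12 of 17 settings, among them omission of any 1 library other than control replicate 2 (edgeR adjusted p between 0.0654 and 0.124). ORC2 did not pass (-0.14 ± 0.06). It was called without shPROX1 replicate 2 (edgeR adjusted p = 0.0351). Of 12 kinase and origin firing genes, 3 rose and 0 fell (25.0% called, against 35.2% of all tested genes). Those that rose were the phosphatase CDC25A (0.19 ± 0.05), the helicase RECQL4 (0.19 ± 0.05) and the mitotic kinase CDK1 (0.17 ± 0.05). The S phase cyclin CCNA2 did not pass (0.08 ± 0.05).

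The largest changes of this wider list were in fork and polymerase accessory genes. TIPIN, of the fork protection complex, had 57.9, 56.8, 64.4 and 56.2 CPM in control and 82.3, 90.2, 81.1 and 86.9 CPM in shPROX1. TIPIN rose 1.45-fold without overlap (0.53 ± 0.07, edgeR adjusted p = 1.02e-06), and shared 21.0% of its exon bases with the pseudogene RPL9P25 on the same strand. POLD2, an accessory subunit of polymerase delta, had 162, 149, 147 and 139 CPM in control and 195, 202, 201 and 217 CPM in shPROX1, and rose 1.37-fold (0.45 ± 0.06, edgeR adjusted p = 9.50e-07). POLE4, a histone-fold subunit of polymerase epsilon, rose (0.40 ± 0.12). POLD2 and POLE4 belong to the list of other polymerase and loader subunits, and TIPIN does not. Of the 9 tested genes of that list, 3 rose and 3 fell (66.7% called, against 35.2% of all tested genes). The list is small and this difference was not tested. The catalytic members POLD1 and POLE of the same 2 polymerases did not pass, as given above.

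DSCC1, of the alternative clamp loader, fell 0.74-fold from 69.4 ± 3.78 to 51.6 ± 0.722 CPM (-0.42 ± 0.07, edgeR adjusted p = 2.54e-05). RPA3, the small subunit of the single-strand binding protein (-0.25 ± 0.06), and the checkpoint kinase ATR (-0.21 ± 0.05) also fell, while RPA2 (-0.02 ± 0.06) and RFC1 (-0.10 ± 0.07) did not pass. The nuclease-helicase DNA2 fell (-0.17 ± 0.06), but not without control replicates 2 or 3 or shPROX1 replicates 1 or 4 (edgeR adjusted p between 0.0570 and 0.0776). TOP2A, the topoisomerase, did not pass (-0.07 ± 0.04).

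In the wider nucleotide list 3 of 9 genes rose and 0 fell, so that 33.3% were called, near the 35.2% of all tested genes. CTPS1, which makes CTP, rose 1.28-fold (0.36 ± 0.07, 100.4 ± 8.46 to 129 ± 10.0 CPM), the thymidylate kinase DTYMK 1.21-fold (0.27 ± 0.05) and the nucleoside diphosphate kinase NME1 1.14-fold (0.19 ± 0.06). NME1 shared 18.6% of its exon bases with the read-through gene NME1-NME2. NME1 was not called without control replicates 3 or 4 or shPROX1 replicate 2 (edgeR adjusted p between 0.0510 and 0.0723). Of 10 further genes of chromatin at the fork, the histone chaperone NASP fell (-0.24 ± 0.05) from 425 ± 22.3 to 361 ± 13.7 CPM. DNMT1, the maintenance methyltransferase that UHRF1 recruits, rose (0.15 ± 0.05, edgeR adjusted p = 0.0322). Its call was lost without control replicates 1 or 2 or shPROX1 replicates 1, 3 or 4 (edgeR adjusted p between 0.0507 and 0.0973). SUPT16H, a subunit of the FACT chaperone, did not pass (-0.05 ± 0.04).

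**Figure D5:**
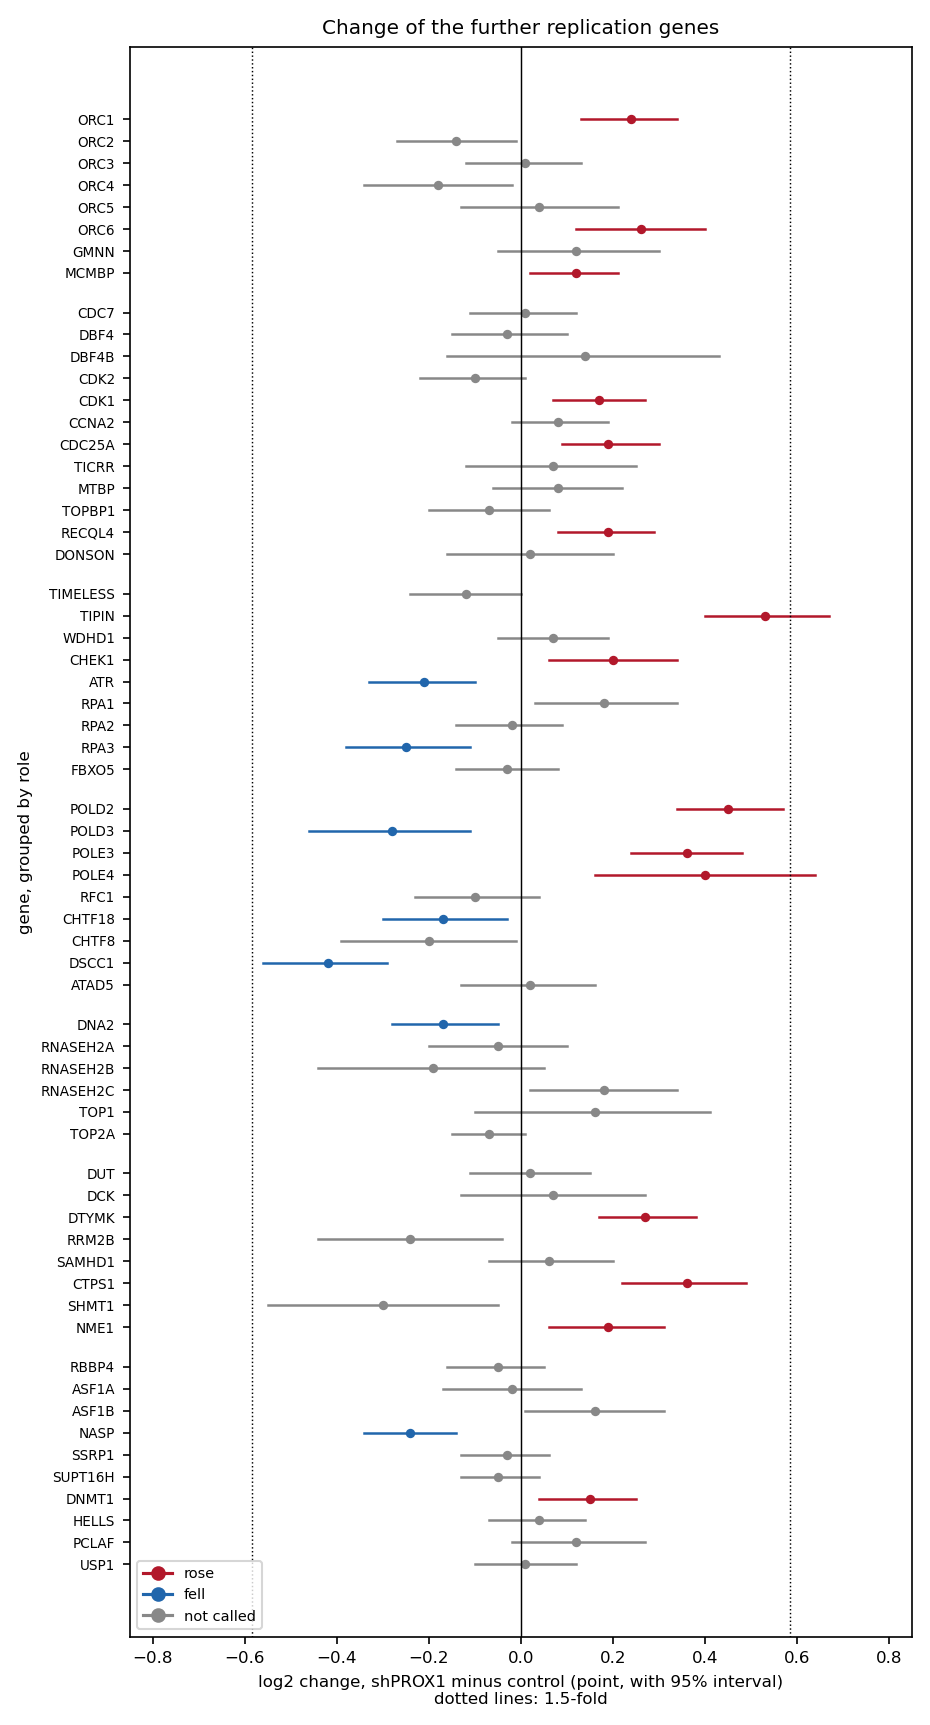
Log2 change (shPROX1 minus control) with its 95% interval for 62 of the 63 tested genes of the wider replication list, grouped by function; red genes rose, blue fell and grey did not pass the edgeR test. TIPIN is highest at 0.53 and DSCC1 lowest at -0.42, and no point reaches the dotted lines at 1.5-fold.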

How the data were processed

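Libraries were prepared from total RNA with a directional kit, per the labels' protocols. For each library the authors deposited unnormalized read counts of 58302 genes, and 0 rows lack a gene name. Per the submitters' processing notes, FastQC, HISAT2, HTSeq and DESeq2 were used on GRCh38 (hg38). Versions, annotation and strand setting: not given in the sources used here. Reads of overlapping genes may be shared or dropped. Processed pseudogenes named after members held at most 5 counts over 8 libraries.

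Symbols, 1-based coordinates and exon lengths came from GENCODE 29 (58039 identifiers matched), and promoter windows from RefSeq. The test was edgeR 4.0.16 under R 4.3.3 (TMM factors, filterByExpr, quasi-likelihood fit on group, Benjamini-Hochberg). Standard errors were derived from the log2 change and F value of that fit. The 95% intervals were built from them with a t quantile, so both are approximate. On simulated data the test recovered 16 of 68 genes changed by a log2 of 0.25, 48 of 66 at 0.5 and 66 of 66 at 1. Far fewer genes were changed there than were called in the data, and they were drawn also from genes with lower counts than the members. These shares therefore need not hold here. A count of 0 allows 0.617 to 0.801 CPM at these depths (3 counts, counting error only). Every pair of libraries within a group varied beyond sampling noise, and all were counted as separate samples. Chi-square divided by its degrees of freedom was between 2.39 and 6.34 for control pairs and between 1.19 and 2.16 for shPROX1 pairs. Alternatives were RLE, upper-quartile or no scaling factors, no filter, a filter of 1 CPM in 4 libraries, DESeq2 1.42.0, limma 3.58.1 voom, a replicate block, omission of each library and a threshold of 0.01. Members and lists were chosen with earlier results of these data known, and ratios of subunits and the choice among listed promoter starts were added after values were seen. In the wider list, up to 3 called genes of at least 5 CPM with the largest change and the most abundant uncalled gene of each function were named. Values of 1 gene of that list, which is counted in the totals, are not reported here.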

Additional observations from a re-analysis of the deposited data

Results flagged for a closer look

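In 9 of 134 groups of 4 libraries (members, PROX1 and named further genes), 1 library stood further from the rest than the 95% limit for 4 values allows, where chance passes about 5%. Among members, MCM10 (68.1 CPM, next 74.8) and CLSPN (139 CPM, next 157) were low in control replicate 1, and UHRF1 (892 CPM, next 845) and DTL (135 CPM, next 124) were high in shPROX1 replicate 4. Among the further genes, control replicate 2 was high for CDK1 (458 CPM) and SUPT16H (513 CPM), control replicate 3 was high for ATR (125 CPM) and CTPS1 (113 CPM), and shPROX1 replicate 3 was low for POLE4 (30.6 CPM).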

How the results depend on the processing

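The number of members called higher was between 7 and 10 with 1 library left out, 5 at an adjusted threshold of 0.01 and 8 to 13 elsewhere, against 11. The number called lower was between 2 and 4 with 1 library left out, 2 without a filter on low counts and 2 at the threshold of 0.01, against 4. In both directions together it was 7 at the threshold of 0.01, against 15. Further genes called lower numbered 12 with library size alone and 4 at the threshold of 0.01, against 7. The summed level of the members was 3.19% higher in shPROX1 without UHRF1, an omission chosen after seeing the data, against 5.11%. Replicate numbers of the titles did not pair the libraries (correlations of same-numbered deviations between -0.0508 and 0.0501). With the replicate number as a block, 11 members were called higher and 3 lower, and 4187 genes in all, against 4364.

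Signs turned for 7 genes that did not pass, with log2 changes near 0. With library size alone MCM7 was -0.011 and EXO1 -0.001. DTL was 0.004 with RLE factors, 0.008 without a filter, 0.007 with the 1 CPM filter, 0.004 with DESeq2 and 0.0 with limma voom. With 1 library left out, the log2 change lay between -0.014 and 0.039 for MCM7, -0.027 and 0.092 for PRIM2, -0.091 and 0.033 for POLE2, -0.089 and 0.033 for RFC3, -0.015 and 0.088 for EXO1, -0.035 and 0.031 for DTL, and -0.051 and 0.029 for RPA2. The causes were not tested.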
